A study of Mus musculus with 121 samples.

Results

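The genes described here are 10 transcription factors of blood progenitors and myeloid cells, Myb, Meis1, Hoxa9, Sox4, Gata2, Runx1, Etv6, Spi1, Ets1 and Lef1, chosen by name from a table of 23946 genes. They were followed across single bone marrow cells of C57BL/6 mice. The labels call 46 of these cells CD11b+ GMP-P and the other 75 GMP. Every cell carries the R412X allele of Gfi1, a transcriptional repressor that neutrophil formation depends on; the genotype is written Gfi1-R412X/- in one label and HTZ in another. No age or treatment is given, no animal is named, and cells without the allele were not analysed here, so nothing below measures an effect of the mutation. Marrow from crushed hindlimbs was enriched on CD117 beads, which bind the receptor Kit, and sorted. Single cells were then captured on a Fluidigm C1 chip for SMARTer cDNA and Nextera XT libraries.

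The members are known for different roles in blood formation. Myb keeps progenitors dividing, Hoxa9 and its partner Meis1 maintain immature cells and are leukaemia genes, Sox4 acts in lymphoid and leukaemic progenitors, and Gata2 acts in stem cells, mast cells and basophils. Runx1 and the ETS factor Etv6 are needed for blood stem cells, and the ETS factor Spi1 (PU.1) for the myeloid lineages. Ets1, also an ETS factor, and Lef1, a nuclear partner of beta-catenin, are best known in lymphoid cells, and LEF1 has been tied to granulocyte formation in humans.

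The deposited annotation gives each cell 1 of 12 states, here in the order of their deposited numbers and with names as deposited. HSCP-1 and MDP held 1 cell each, Multi-Lin 2, cMoP 5, Mono 38, MP 11, Gran-1 14, Gran-2 15, Myelo-1 5, Myelo-2 18, Myelo-3 1 and Myelo-4 10. The CD11b+ GMP-P cells carry 1 run name. Of the GMP cells, 13 carry run names with a late July date (late July GMP) and 62 carry another (other GMP). Read as a date, the CD11b+ GMP-P run name gives the same day as the names of late July GMP, some of which hold no year, and the name of other GMP holds none. Comparing CD11b+ GMP-P with late July GMP thus sets the populations side by side under names of the same day, if the year is shared. Run name and population are fully tied, so population and run cannot be told apart in this comparison or against other GMP. The 34 Myelo cells all have that day in their run names, 24 of them CD11b+ GMP-P and 10 late July GMP cells. Other GMP held 0 among its 62 cells, a count that leaves room for up to 4.84%.

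Values are log2(TPM + 1), TPM being a length-normalised share of each cell's transcripts, and a gene is called detected in a cell at 1 TPM or more. TPM keeps no read number, so sequencing depth is unknown. The median number of detected genes was 2012 in CD11b+ GMP-P cells of Myelo states and 3684 in those of Gran states. The top 20 genes of a cell held 57.8% of its TPM (median) in CD11b+ Myelo cells and 27.9% in CD11b+ Gran cells. Because no animal is named, each population counts as 1 sample and no test was made. SDs are over cells and are no replicate error. Intervals are exact 95% binomial intervals for counting error only, and a share of 0 carries the limit that 3 cells allow. A difference of 1 or more between mean log2 values is used as a size threshold and no call of significance. Differences are set beside those of the 9150 genes found in 10% or more of the cells of CD11b+ GMP-P or of GMP, which include 9 of the 10 members. The sources used here do not say how states were assigned or whether members entered into it, so differences between states describe the annotation. Mpo and Elane, primary granule genes, were detected in every cell, and Kit in 14 of 46 CD11b+ GMP-P and 51 of 75 GMP cells.

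**Figure D1:**
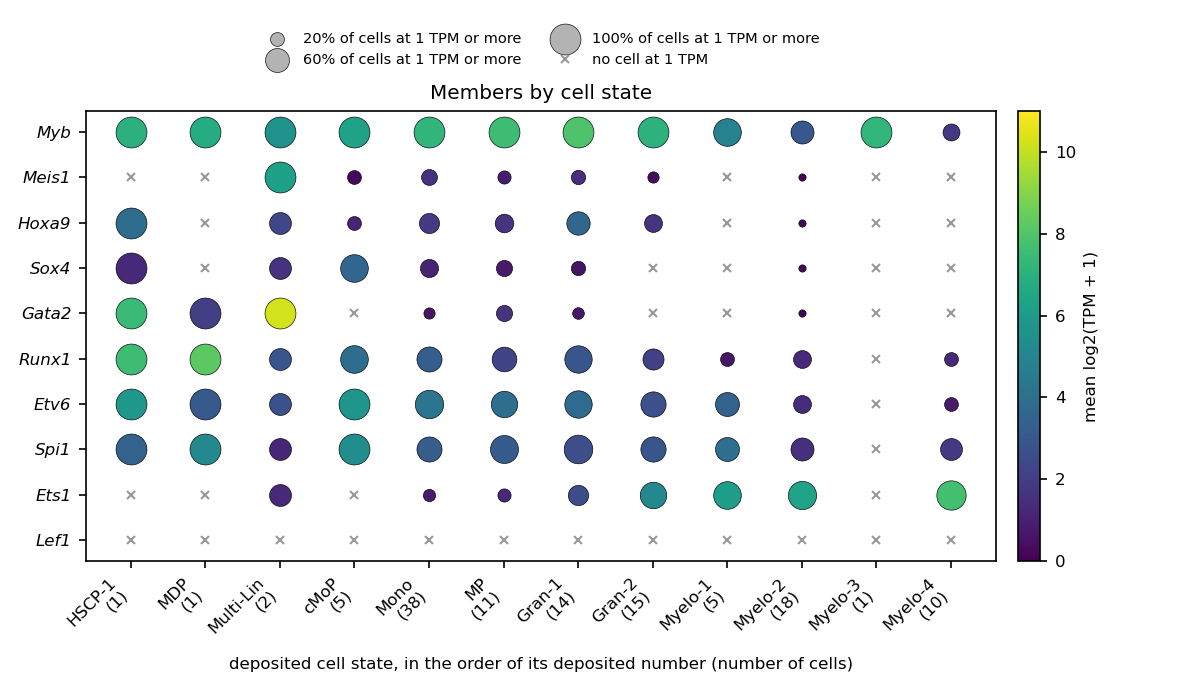
Each circle is a gene in a deposited state, with its area proportional to the share of cells at 1 TPM or more and its colour the mean log2(TPM + 1); a cross marks a state with no such cell. Myb is at 100% in every state before Myelo-1, Ets1 reaches 90% in Myelo-4, and Lef1 has a cross in all 12 states.

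By the difference of mean log2 values, Myb was the member lowest in Myelo relative to Gran states. As a log2 ratio of mean TPM within CD11b+ GMP-P, Myb was at −2.70. Hoxa9 was lowest on that scale, at −5.35. Gata2, found in 1 Gran cell there, was also below Myb, at −3.35. Every cell of every state from HSCP-1 to Gran-2 had Myb. Mean Myb was 6.35 ± 2.84 in cMoP, 7.20 ± 1.71 in Mono, 7.59 ± 1.03 in MP, 7.95 ± 1.37 in Gran-1 and 7.05 ± 2.18 in Gran-2 on the log2 scale. It was 4.85 ± 3.23 in Myelo-1, 2.98 ± 2.66 in Myelo-2 and 1.81 ± 2.53 in Myelo-4. Neighbouring states from cMoP to Gran-2 differed by less than 1 SD over cells. The share of cells with Myb was 4 of 5 in Myelo-1, 10 of 18 in Myelo-2 (55.6%, 30.8 to 78.5) and 3 of 10 in Myelo-4 (30%, 6.67 to 65.2).

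Within CD11b+ GMP-P, Myb ranged from 0 to 9.15 (median 0.85) in the 24 Myelo cells, against 1.24 to 10.75 (median 7.07) in the 16 Gran cells. The groups overlap, since some Myelo cells kept levels like those of Gran cells. The means were 2.96 ± 3.06 in Myelo and 7.12 ± 2.31 in Gran cells, a difference of −4.16, lower than for all but 1.19% of the genes. Among the Myelo-1 cells Myb was 0.78, 3.30, 4.16, 6.84 and 9.15, and the single Myelo-3 cell, with 967 detected genes, had 7.25. In late July GMP the mean was 3.22 ± 2.44 in 10 Myelo cells and 7.97 ± 1.08 in 3 Gran cells, a difference of −4.75. Myb was the 1 member lower by 1 or more there (36.9% of all genes were lower), and Ets1, at 3.11, the 1 member higher (11.4%). Both runs that hold Myelo cells therefore gave Myb the same direction.

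Among states of at least 5 cells, Hoxa9 was highest in Gran-1, and it was found in 1 Myelo cell. Cells with Hoxa9 made up 16 of 38 in Mono (42.1%, 26.3 to 59.2), 4 of 11 in MP, 8 of 14 in Gran-1 (57.1%, 28.9 to 82.3) and 5 of 15 in Gran-2 (33.3%, 11.8 to 61.6). Of the 34 Myelo cells, 1 had Hoxa9, a late July GMP cell at 5.02. Within CD11b+ GMP-P it was listed at 0 in all 24 Myelo cells, a limit of 12.5%, against 7 of 16 Gran cells (43.8%, 19.8 to 70.1) with a mean of 2.43 ± 3.05. In other GMP the mean was 4.0 ± 2.89 in Gran-1 (median 4.48, 0 to 7.20), 1.68 ± 2.66 in MP (median 0, 0 to 7.18) and 2.0 ± 2.54 in Mono (median 0, 0 to 7.54). Gran-1 exceeded MP by 2.32 and Mono by 2.0, higher than for 96.1% and 96.4% of the genes, while the ranges overlapped almost fully. The 3 CD11b+ GMP-P cells in Gran-1 had 0, 5.70 and 8.58. In late July GMP the 3 Gran cells had 0, 0.37 and 0.44, all below 1 TPM. Myelo minus Gran was 0.26 for Hoxa9 in that run, so its lower Myelo level was seen in CD11b+ GMP-P only.

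Meis1 was sparse, with 3 of 46 cells in CD11b+ GMP-P, 1 of 13 in late July GMP and 17 of 62 in other GMP. Its state mean was highest in Multi-Lin, whose 2 cells had 5.02 and 7.58, but the highest single cells were a Mono cell at 8.58 and a Gran-1 cell at 8.49. By state, Meis1 was present in 10 of 38 cells in Mono (26.3%, 13.4 to 43.1), 2 of 11 in MP, 3 of 14 in Gran-1 and 2 of 15 in Gran-2. In Myelo states 1 of 34 cells had it, and within CD11b+ GMP-P it was listed at 0 in all 24 Myelo cells and found in 2 of 16 Gran cells. That Gran share is so low that a lower Myelo share was not detectable at this number of cells. Cells with both Meis1 and Hoxa9 numbered 11, all of them among the 62 other GMP cells, against 0 of 46 in CD11b+ GMP-P, a limit of 6.52%.

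Sox4 followed a different order, with its highest level in cMoP, at 0, 3.58, 3.75, 5.37 and 5.54 in the 5 cells. Elsewhere it was present in 13 of 38 Mono cells (34.2%, 19.6 to 51.4), 3 of 11 in MP, 3 of 14 in Gran-1, 0 of 15 in Gran-2 (a limit of 20%) and 1 of 34 in Myelo states. Sox4 was thus already low in the Gran states, and within CD11b+ GMP-P it was found in 1 of 24 Myelo and 1 of 16 Gran cells. Of the 4 genes Myb, Meis1, Hoxa9 and Sox4, at least 2 were present in 27 of 38 cells in Mono, 8 of 11 in MP, 9 of 14 in Gran-1, 7 of 15 in Gran-2 and 2 of 34 in Myelo states.

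Promoters of these 4 genes are shown, each of which was found in a smaller share of Myelo than of Mono cells. The same held for Gata2, Runx1, Etv6 and Spi1, so that share does not set these 4 apart. The mutated factor Gfi1 binds a core of AATC. Within CD11b+ GMP-P, Meis1 and Sox4 differed little between Myelo and Gran cells, at −0.28 and −0.048. The windows hold 300 bases and reach 50 bases past the start, 5′ to 3′ on the gene's strand, from RefSeq on GRCm38.p6, which is not the build of the expression table. Capitals mark AATC or its reverse complement GATT.
Myb: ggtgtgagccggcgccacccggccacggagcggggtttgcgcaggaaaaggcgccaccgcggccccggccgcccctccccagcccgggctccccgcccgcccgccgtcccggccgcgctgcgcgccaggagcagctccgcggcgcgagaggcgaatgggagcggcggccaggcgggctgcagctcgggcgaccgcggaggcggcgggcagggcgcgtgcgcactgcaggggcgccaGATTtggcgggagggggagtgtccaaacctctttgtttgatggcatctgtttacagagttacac
Meis1: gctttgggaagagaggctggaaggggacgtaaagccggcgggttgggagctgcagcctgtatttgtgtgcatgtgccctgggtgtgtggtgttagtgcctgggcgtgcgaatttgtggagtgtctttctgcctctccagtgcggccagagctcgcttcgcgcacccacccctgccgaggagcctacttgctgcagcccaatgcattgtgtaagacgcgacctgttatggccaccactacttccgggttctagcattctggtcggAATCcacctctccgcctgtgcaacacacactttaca
Hoxa9: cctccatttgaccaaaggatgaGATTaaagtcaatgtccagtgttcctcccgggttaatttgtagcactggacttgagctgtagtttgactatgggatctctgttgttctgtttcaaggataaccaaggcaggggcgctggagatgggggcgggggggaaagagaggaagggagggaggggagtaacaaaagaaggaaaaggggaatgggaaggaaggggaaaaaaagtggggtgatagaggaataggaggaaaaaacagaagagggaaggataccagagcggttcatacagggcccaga
Sox4: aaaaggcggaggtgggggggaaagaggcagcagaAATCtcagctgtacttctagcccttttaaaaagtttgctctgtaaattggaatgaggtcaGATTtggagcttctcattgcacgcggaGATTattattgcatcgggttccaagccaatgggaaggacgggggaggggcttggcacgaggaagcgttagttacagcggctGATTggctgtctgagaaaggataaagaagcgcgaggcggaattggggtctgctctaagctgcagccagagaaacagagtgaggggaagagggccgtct

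The Myb window (chr10:21160935-21161234, minus strand) was 75% G or C against a median of 52.7% over all 32851 promoters, and its 1 match began 14 bases before the start. Meis1 (chr11:19018920-19019219, minus) and Hoxa9 (chr6:52227321-52227620, minus) held 1 match each, and Sox4 (chr13:28953650-28953949, minus) held 4. AATC on either strand occurs in 73.1% of all promoters of this length, so a match is common. Hoxa9 also held 11 matches to GGAA, the core bound by ETS factors, on either strand, which occurs in 96% of promoters. RefSeq windows were found for 8 of the 10 members. These matches describe the letters and no binding was measured.

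Few cells had Gata2, 4 of 46 in CD11b+ GMP-P, 0 of 13 in late July GMP and 11 of 62 in other GMP. Its level was highest in the 2 Multi-Lin cells at 10.25 and 10.27, followed by the HSCP-1 cell at 7.44. Among the larger states, it was present in 5 of 38 cells in Mono, 3 of 11 in MP, 2 of 14 in Gran-1, 0 of 15 in Gran-2 and 1 of 34 in Myelo states. In other GMP, MP minus Mono put Gata2 higher by 1.40 and Runx1 lower, at −1.05, the only members past 1 there (8.68% of all genes higher and 13.7% lower). Outside the rare states Gata2 was therefore a gene of few cells, and its means rest on them. The Multi-Lin cells also held Cpa3, Mcpt8 and Fcer1a, genes of mast cells and basophils, at means of 12.48, 11.27 and 8.96, and 6 of 7 genes of a basophil and mast marker list. The summed level of that list was 4800 and 41129 TPM in these cells and 4098 TPM in the HSCP-1 cell. It reached at most 1404 TPM in Mono, 2294 in Gran-1, 2934 in MP and 3172 in Myelo-1 cells, not far below the lower Multi-Lin cell. These sums rest on different genes. Of the 7, 6 were detected in any Mono cell, 4 each in Gran-1 and MP, and in Myelo-1 only 1, Hdc.

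Runx1 and Etv6 were widely detected before the Myelo states and less so in them. Runx1 was highest in the MDP cell at 8.23 and the HSCP-1 cell at 7.60. The share of cells with Runx1 was 25 of 38 in Mono (65.8%, 48.6 to 80.4), 11 of 14 in Gran-1 (78.6%, 49.2 to 95.3), 7 of 15 in Gran-2 and 9 of 34 in Myelo states (26.5%, 12.9 to 44.4). Within CD11b+ GMP-P the Runx1 mean was 1.24 ± 2.19 in Myelo and 2.57 ± 2.67 in Gran cells, a difference of −1.33. The difference is smaller than 1 SD over cells in either group, and 29.2% of the genes had a lower one. It shrank to −0.24 among 12 Myelo and 11 Gran cells with 2000 to 4000 detected genes and to −0.57 on the log2(TPM + 10) scale, both inside the size threshold.

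Etv6 was detected in all 5 cMoP cells, with a mean of 5.78 ± 1.19, and in 32 of 38 Mono cells (84.2%, 68.7 to 94). Of the Gran cells 21 of 29 had it (72.4%, 52.8 to 87.3), and of the Myelo cells 11 of 34 (32.4%, 17.4 to 50.5). Within CD11b+ GMP-P the Etv6 mean was 1.41 ± 2.35 in Myelo and 2.65 ± 2.06 in Gran cells, a difference of −1.25. This direction did not hold: the difference was 0.34 in the same cells with 2000 to 4000 detected genes, and 0.054 as a log2 ratio of mean TPM. Over all cells, Etv6 was also the member whose level ran most closely with the number of detected genes (Spearman's rho 0.54, cells sharing runs and states), and the part of cell complexity in its lower Myelo level was not tested.

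Spi1 was detected in every state of at least 5 cells. All 5 cMoP cells had it, with a mean of 5.37 ± 1.1, as did 25 of 38 in Mono (65.8%, 48.6 to 80.4), 22 of 29 in Gran (75.9%, 56.5 to 89.7) and 18 of 34 in Myelo states (52.9%, 35.1 to 70.2). Within CD11b+ GMP-P the Spi1 mean was 2.11 ± 2.96 in Myelo and 2.65 ± 2.61 in Gran cells, a difference of −0.53 beside −0.70 for the median gene. The direction depended on the scale, since the log2 ratio of mean TPM was 1.57, past the size threshold upward, and the difference was 0.36 among cells with 2000 to 4000 detected genes. The single highest cell was a CD11b+ GMP-P cell in Myelo-4, at 10.11, and the ratio of mean TPM rests largely on it. The next highest Myelo cells of CD11b+ GMP-P were at 8.10 and 8.01.

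By mean log2 values, Ets1 was the only member above the size threshold in Myelo relative to Gran within CD11b+ GMP-P. The ratio of mean TPM added Spi1 there, largely through 1 cell. Among states of at least 5 cells, the Ets1 mean was higher in each than in the one before. Mean Ets1 was 0.11 ± 0.25 in cMoP, 0.81 ± 1.74 in Mono, 1.23 ± 2.73 in MP, 2.54 ± 3.35 in Gran-1 and 5.18 ± 3.43 in Gran-2. It was 6.10 ± 4.07 in Myelo-1, 6.38 ± 3.74 in Myelo-2 and 7.73 ± 3.09 in Myelo-4. From Mono on, each step between neighbouring states is within 1 SD over cells. The share of cells with Ets1 was 6 of 38 in Mono (15.8%, 6.02 to 31.3), 6 of 14 in Gran-1 (42.9%, 17.7 to 71.1), 11 of 15 in Gran-2 (73.3%, 44.9 to 92.2), 15 of 18 in Myelo-2 (83.3%, 58.6 to 96.4) and 9 of 10 in Myelo-4 (90%, 55.5 to 99.7). The level in the cells that had Ets1 also differed, with medians of 5.11 in Mono, 5.81 in Gran-1, 7.11 in Gran-2, 8.38 in Myelo-2 and 9.04 in Myelo-4.

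Within CD11b+ GMP-P, Ets1 ranged from 0 to 10.23 (median 8.45) in the 24 Myelo cells, against 0 to 9.49 (median 5.62) in the 16 Gran cells. Both groups thus held cells at 0, and most Myelo cells lay above the middle of the Gran cells. The means were 6.70 ± 3.78 in Myelo and 4.71 ± 3.50 in Gran cells, a difference of 1.99, higher than for 99.2% of the genes. In late July GMP the means were 6.18 ± 3.60 in 10 Myelo cells and 3.07 ± 5.32 in 3 Gran cells, where 1 of the 3 held all of the Ets1, at 9.21. Within other GMP, which holds no Myelo cell, Ets1 averaged 2.37 ± 3.09 in Gran-1 and 0.72 ± 1.69 in Mono, a difference of 1.66, and 1.15 above MP. On the log2(TPM + 10) scale these were 0.84 and 0.50, under the size threshold. As a log2 ratio of mean TPM, Gran-1 minus MP turned to −0.38; 1 MP cell at 8.88 had the highest Ets1 of other GMP. Ets1 ran against the number of detected genes over all cells (Spearman's rho −0.41) but not within other GMP (0.12), and its Myelo minus Gran difference was 3.31 in the cells with 2000 to 4000 detected genes.

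**Figure D2:**
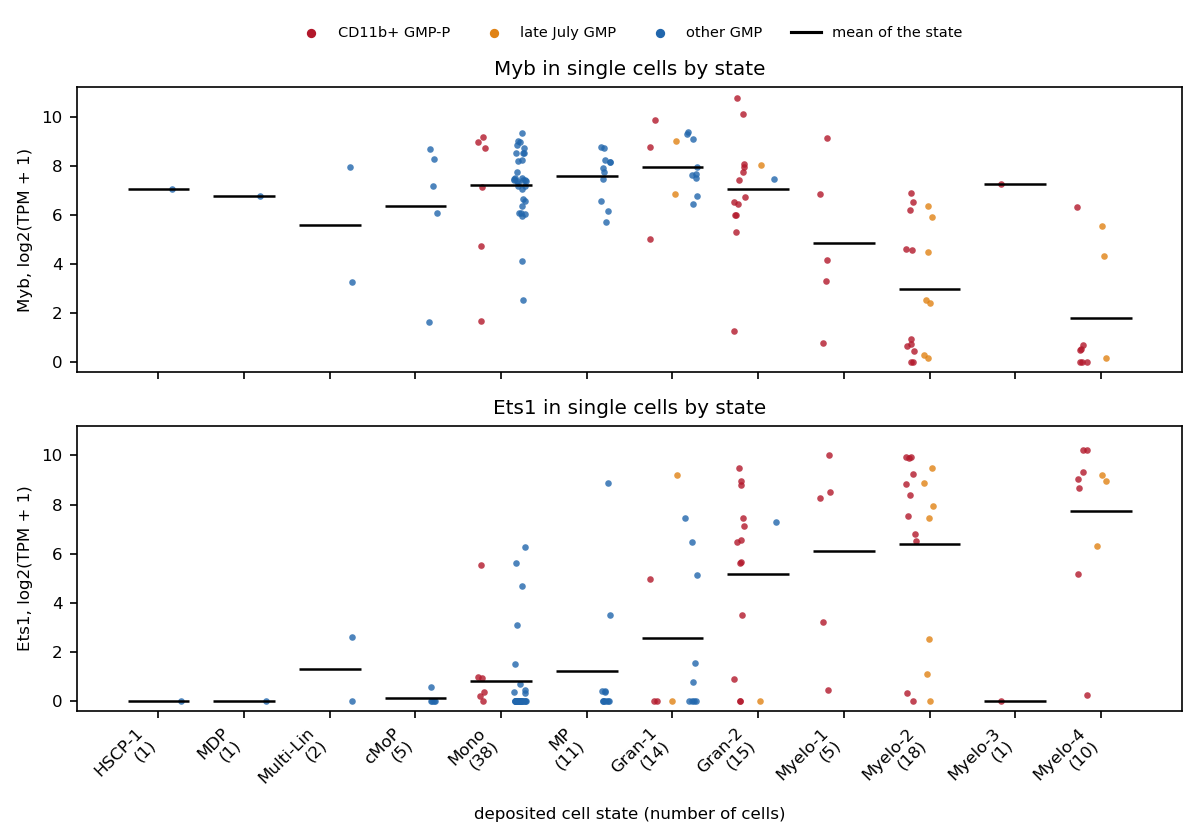
Each point is a cell, coloured by population and run name, with log2(TPM + 1) of Myb above and Ets1 below; lines are state means. Mean Myb is 7.05 in Gran-2 and 1.81 in Myelo-4, while mean Ets1 is 5.18 in Gran-2 and 7.73 in Myelo-4, and cells at or near 0 remain in most states for Ets1.

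Ets1 is also expressed by T and NK cells, and the markers of such cells bear on its level. Of 11 T and NK markers, 9 were below 1 TPM in every Myelo cell, Cd3e, Cd3g and Thy1 among them. The list's summed level was 0 to 4918 TPM in Myelo cells (median 111), against 410 to 8139 TPM in Gran cells (median 3615), carried by the 2 markers found there, Nkg7 and Lck. All 9 B lineage markers were below 1 TPM in every Myelo cell, and 7 of 9 in every Gran cell. Neutrophil markers, by contrast, summed to 16133 to 557660 TPM in Myelo cells (median 464038), against 4.36 to 226507 TPM in Gran cells (median 43257). The part of this large neutrophil share in the lower TPM of other genes was not tested; scaling each cell to its upper quartile gave −4.04 for Myb and 1.88 for Ets1.

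Myb and Ets1 were found together in single cells. Both were detected in 6 of 38 cells in Mono, 6 of 14 in Gran-1, 11 of 15 in Gran-2 (73.3%, 44.9 to 92.2), 3 of 5 in Myelo-1, 8 of 18 in Myelo-2 and 2 of 10 in Myelo-4. Ets1 without Myb was seen in 15 of 34 Myelo cells (44.1%, 27.2 to 62.1), 7 of them in Myelo-2 and 7 in Myelo-4, and in 0 of 29 Gran cells, a limit of 10.3%. By run, Ets1 without Myb was seen in 12 of 46, 3 of 13 and 0 of 62 cells of CD11b+ GMP-P, late July GMP and other GMP. Every Gran cell and every other GMP cell had Myb, so the count of 0 in each follows from Myb alone. Likewise, in Mono, Gran-1 and Gran-2 the cells with both are simply the cells with Ets1. These shares depend on the 1 TPM threshold, because many Myelo cells held Myb at low values above 0. Counting any TPM above 0, a choice made after seeing the data, Ets1 without Myb was left in 5 of 34 Myelo cells, 2 in Myelo-2 and 3 in Myelo-4. Cells with both were then 12 of 15 in Gran-2, 5 of 5 in Myelo-1, 14 of 18 in Myelo-2 and 7 of 10 in Myelo-4. Gran-2 held the largest share of cells with both genes at 1 TPM or more, and not when any TPM counts. Ets1 without Myb stayed at 0 of 29 Gran cells with any TPM and was in 1 of 29 at 10 TPM or more.

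**Figure D3:**
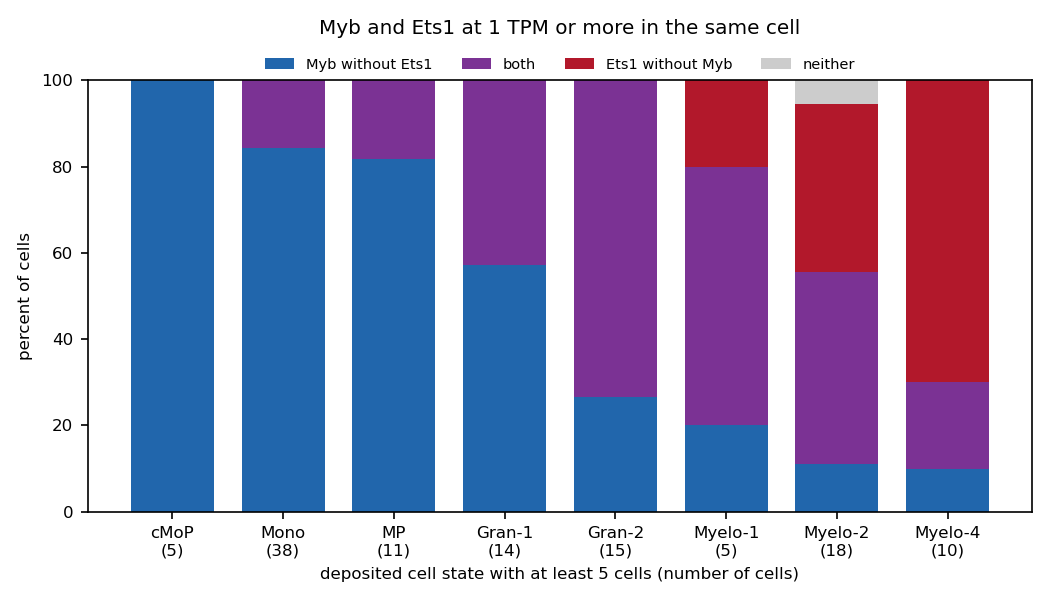
Stacked bars give the percent of cells in each state of at least 5 cells with Myb alone, both genes, Ets1 alone or neither at 1 TPM or more. Cells with both reach 73.3% in Gran-2, and cells with Ets1 alone reach 70% in Myelo-4, where counting any TPM above 0 gives 30%.

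Lef1 was listed at 0 in every cell of both populations, which sets a limit of 2.48%, so no direction along the states can be given. In all, 10165 genes (42.4% of the table) were at 0 in every cell. Of 11 other Tcf-Lef family genes and Wnt partners, 5 passed the 10% filter. In CD11b+ Myelo minus Gran cells, 0 of these 5 were higher and 2 lower by 1 or more, beside 2.35% and 38.8% of all genes, with a median of −0.13 beside −0.70. The share lower is about that of all genes. Ctnnb1, which encodes beta-catenin, averaged 0.61 in Myelo and 3.13 in Gran cells.

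Counted over the 9 members that passed the filter, Myelo minus Gran within CD11b+ GMP-P held 1 member higher by 1 or more (Ets1; 2.35% of all genes were higher) and 4 lower (Myb, Hoxa9, Runx1, Etv6; 38.8% of all genes were lower). The share lower is near that of all genes, and the median difference was −0.53 for the members and −0.70 for all genes. Gran-1 minus MP within other GMP held 3 higher (Hoxa9, Meis1, Ets1; background 23%) and 1 lower (Gata2; 9.52%). Gran-1 minus Mono within other GMP held 2 higher (Hoxa9, Ets1; 17.9%) and 0 lower (8.5%). These 2 comparisons share the 9 Gran-1 cells. Within CD11b+ GMP-P, Gran-2 minus Mono (13 and 6 cells) held Ets1 higher by 4.09 (11.6% of genes higher), and Gata2 and Etv6 lower, at −2.28 and −1.52 (29.9% lower).

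**Figure D4:**
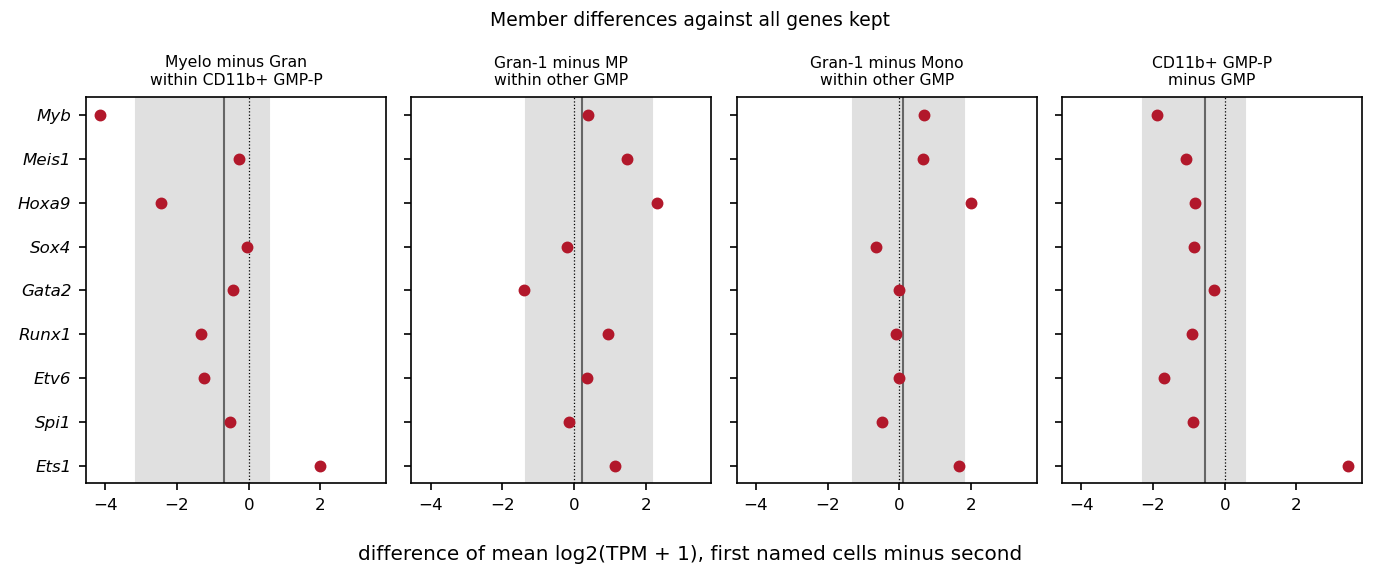
Points are differences of mean log2(TPM + 1) of the 9 members that passed the filter in 4 comparisons; the grey band spans the 5th to 95th percentile of the 9150 genes, the grey line their median and the dotted line 0. In Myelo minus Gran, Myb at −4.16 lies below the band and Ets1 at 1.99 above it.

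By population, CD11b+ GMP-P minus GMP put Ets1 higher, at 5.31 ± 3.89 in CD11b+ GMP-P and 1.86 ± 3.09 in GMP, and Myb, Meis1 and Etv6 lower, at −1.88, −1.08 and −1.69. In cells with 2000 to 4000 detected genes those 3 were at −0.042, −0.93 and −0.29, all inside the size threshold. As log2 ratios of mean TPM, Myb and Etv6 were at −0.12 and −0.88, also inside it. Meis1, Gata2 and Sox4 were past it as ratios, at −2.61, −2.06 and −1.67. By mean log2 over all cells, that is 1 of 9 members higher (2.3% of all genes) and 3 lower (28.8%). These differences changed with the GMP run set beside CD11b+ GMP-P, and the mix of states changed with it. Myelo cells were 24 of 46 in CD11b+ GMP-P and 10 of 13 in late July GMP, and other GMP held no Myelo cell. The part of state mix in these differences was not tested. Against late July GMP, whose run names give the same day, no member differed by 1 or more (11.1% of genes higher and 5.08% lower). Against other GMP 1 was higher and 7 lower (2.77% and 36.7%). The share of cells with Ets1 was 31 of 46 in CD11b+ GMP-P (67.4%, 52 to 80.5), 10 of 13 in late July GMP (76.9%, 46.2 to 95) and 13 of 62 in other GMP (21%, 11.7 to 33.2). Sox4 was present in 2 of 46 cells of CD11b+ GMP-P, 0 of 13 of late July GMP and 24 of 62 of other GMP.

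Within single states the runs differed in 2 members (Myelo-2) and in 3 (Mono). In Myelo-2, CD11b+ GMP-P minus late July GMP (11 and 7 cells) put Ets1 higher by 1.70 and Runx1 by 1.34 (9.38% of genes were higher), and no member lower (18.4%). Ets1 was detected in 9 of 11 and 6 of 7 of these cells, and Runx1 in 4 of 11 and 2 of 7. As a log2 ratio of mean TPM, Ets1 was at 0.89, under the size threshold, and Runx1 at 2.95. In Mono, CD11b+ GMP-P minus other GMP (6 and 32 cells) put Gata2 higher by 2.08 (17.4% of genes), and Spi1 and Sox4 lower, at −1.54 and −1.14 (18.8%). Gata2 in Mono rested on 2 of the 6 CD11b+ GMP-P cells.

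**Figure D5:**
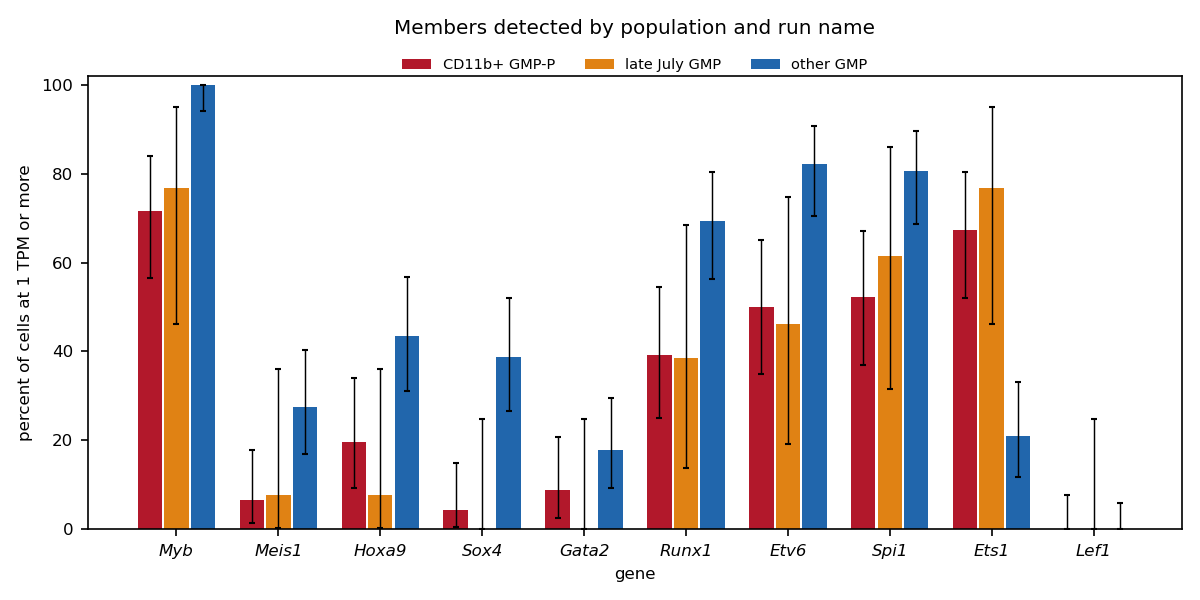
Bars give the percent of cells at 1 TPM or more for each member in CD11b+ GMP-P, late July GMP and other GMP, with exact 95% binomial intervals. Ets1 stands at 67.4%, 76.9% and 21%, and Myb at 71.7%, 76.9% and 100%.

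Related genes gave the members their setting. Of 10 other ETS family genes that passed the filter, 0 were higher and 3 lower by 1 or more in CD11b+ Myelo minus Gran cells (median −0.52). Of all genes, 2.35% were higher and 38.8% lower (median −0.70). On 10 genes, the share lower is near that of all genes. Fli1, an ETS factor of stem cells and megakaryocytes, averaged 5.64 in Myelo and 7.17 in Gran cells. Of 9 progenitor factors and Hoxa9-Meis1 partners, 5 were lower and 0 higher (median −1.14), somewhat more than the 38.8% of all genes, with the stem cell factors Lmo2 at 1.27 in Myelo and 3.91 in Gran and Lyl1 at 1.68 and 4.24. Of 11 Runx, Gata and Myb relatives and cofactors, 4 were lower and 0 higher (median −0.81), near the share of all genes, led by the corepressor Cbfa2t3, at 0.49 in Myelo and 2.82 in Gran cells.

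Genes described as targets of Myb and PU.1 gave lower values. Of 8 genes described as Myb targets, 6 were lower and 0 higher in CD11b+ Myelo minus Gran cells (median −2.94 beside −0.70 for all genes, of which 38.8% were lower). Mpo, the myeloperoxidase gene, averaged 8.56 in Myelo and 13.98 in Gran cells, and the primary granule protease genes Prtn3 and Elane differed by −5.32 and −4.61. Of 9 receptor genes described as PU.1 targets, 7 were lower and 1 higher (median −1.34). The higher one was Itgam, which encodes CD11b, at 6.26 in Myelo and 3.22 in Gran cells, and Csf2rb, a chain of the GM-CSF receptor, was lower, at 3.83 in Myelo and 7.0 in Gran cells. In Gran-1 minus Mono of other GMP, 1 of the 8 Myb target genes was higher and 1 lower by 1 or more, so most stayed inside the threshold (median 0.47 beside 0.089 for all genes, of which 17.9% were higher and 8.5% lower).

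The genes most like each member were ranked by Pearson's r of state means over the 8 states with at least 5 cells, which share runs and differ in detected genes, so r is a description. Ets1 was most like Lcn2 (0.99), Camp (0.98), Ngp (0.98) and Pilrb2 (0.98). The first 3 are secondary granule genes, and Camp averaged 1.15 in Mono, 3.13 in Gran-1, 10.50 in Gran-2 and 15.45 in Myelo-2 cells. Myb was most like Vdac2, Nop58, Psmd7 and Ssr4 (0.98 to 0.99), genes of mitochondria, ribosome assembly, the proteasome and the secretory pathway. Hoxa9 was most like BC027231, Mycbp, 5830417I10Rik and Fem1a, and Sox4 most like Mgmt, BC064078, Rest and 4931406C07Rik.

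In the GENCODE annotation of GRCm38, Hoxa9 overlaps Mir196b on the same strand, and Myb, Sox4, Runx1 and Ets1 each overlap 1 annotated gene on the opposite strand. Meis1 overlaps 5 annotated genes, 3 of them on its own strand, Etv6 overlaps 5, 2 of them on its own strand, and Lef1 overlaps 2, 1 on each strand. Gata2 and Spi1 overlap 0. The kits named do not mark strand, so reads of such partners cannot be told apart from those of the member.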

How the data were processed

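Single cells were captured on the Fluidigm C1, with SMARTer cDNA and Nextera XT libraries, per the labels' protocols. Bowtie2, RSEM and mm9 are named in the submitters' processing notes; the sources used here give no versions or settings. The authors deposited log2 values, which by their sums after back-transformation (999517 to 1001449 per cell) are log2(TPM + 1), and a table of state names. Of all values 81.7% were 0. No sample column was left unused, and no cells had identical columns. Read depth is unknown.

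Means, differences of means, shares at 1 TPM or more and exact (Clopper-Pearson) intervals were computed in Python 3.11.15 with pandas 2.3.3 and scipy 1.17.1 and checked on simulated data. Each cell is 1 GEO sample, cells are not replicates, and each population is 1 sample, so no test was made. Genes in at least 10% of either population's cells were kept. No doublet caller was run. The members, the 7 other gene lists and the 11 marker lists were chosen with earlier results of these data known. Named genes are all members, up to 3 genes per list with the largest difference in Myelo minus Gran (CD11b+ GMP-P) and in Gran-1 minus Mono (other GMP), and 4 most like genes; not every one is printed, and Fcer1a, Cpa3, Mcpt8 and marker genes were named from the marker lists. Alternatives were other pseudocounts (0.1 and 10 TPM), the ratio of mean TPM, upper quartile scaling, other detection thresholds, no gene filter and cells by detected genes.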

Additional observations from a re-analysis of the deposited data

How the results depend on the processing

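No paired analysis was possible because no replicate is numbered across groups and each population is 1 sample. Of 198 recomputed member differences, 165 stayed on their side of the size threshold of 1, 17 fell inside it and 16 passed it. By setting, 8 fell inside with log2(TPM + 10), 5 in cells with 2000 to 4000 detected genes and 4 with the ratio of mean TPM. The sign turned in 19, 16 of which were under 1 at the start. Of these 16, Spi1 turned furthest as the ratio, to 1.57 in Myelo minus Gran, largely through 1 cell, and to 0.83 in CD11b+ GMP-P minus GMP. The other 3 were Etv6 in Myelo minus Gran within CD11b+ GMP-P, 0.054 as a log2 ratio of mean TPM and 0.34 in cells with 2000 to 4000 detected genes, a setting chosen after seeing the data, and Ets1 in Gran-1 minus MP, −0.38 as that ratio. Counts of members changed too. In Myelo minus Gran, 2 were higher with the ratio of mean TPM, and 2 lower with log2(TPM + 10) and in cells with 2000 to 4000 detected genes. In Gran-1 minus MP, log2(TPM + 10) left 1 higher and 0 lower. In Gran-1 minus Mono, log2(TPM + 10) left 1 higher, while log2(TPM + 0.1) and the ratio of mean TPM each gave 1 lower. In CD11b+ GMP-P minus GMP, 7 were lower with log2(TPM + 0.1), 1 with log2(TPM + 10), 5 with upper quartile scaling and 1 in cells with 2000 to 4000 detected genes. The cause was not tested.

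The share of all kept genes lower in Myelo minus Gran was 38.8%, and 54.5% with log2(TPM + 0.1), 17.7% with log2(TPM + 10), 46% with the ratio and 26.3% in cells with 2000 to 4000 detected genes; the share higher was 2.35%, and 3.99%, 1.16%, 15% and 7.17% in the same order. The median of all genes was −0.68 with upper quartile scaling and −0.34 in cells with 2000 to 4000 detected genes. Other GMP held too few cells in that range for Gran-1 comparisons. Counting TPM above 0 put Myb in 100% of Myelo-1, 88.9% of Myelo-2 and 70% of Myelo-4 cells. Tuba1b, a gene most cells use, was at 0 in 5 of 10 Myelo-4 cells, so a 0 there can be a missed transcript.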

Other observations

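Other granulocyte and monocyte factors differed in both directions between the same states. Of 18 that passed the filter, 4 were higher and 6 lower by 1 or more in Myelo minus Gran within CD11b+ GMP-P, where 2.35% of all genes were higher and 38.8% lower. The share lower is thus near that of all genes and the share higher above it. Mxd1, which opposes Myc, averaged 4.83 ± 3.52 in Myelo and 1.86 ± 2.73 in Gran cells (SD over cells, 24 and 16 cells). Tfec averaged 0.73 ± 1.83 in Myelo and 5.10 ± 3.41 in Gran cells, and Gfi1 itself 3.20 ± 3.51 in Myelo and 6.46 ± 3.11 in Gran cells. In Gran-1 minus Mono of other GMP, 5 were higher and 3 lower, beside 17.9% and 8.5% of all genes. There Gfi1 averaged 8.38 ± 0.71 in Gran-1 and 4.04 ± 3.31 in Mono, Irf8, a monocyte and dendritic factor, 3.31 ± 3.31 in Gran-1 and 7.53 ± 1.49 in Mono, and Klf4, a monocyte factor, 1.74 ± 2.14 in Gran-1 and 4.99 ± 2.51 in Mono. Among Runx relatives Runx2 and Runx3 were higher in Gran-1 than in Mono by 2.60 and 1.79, and their partner Cbfb differed by −1.63.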
